A study of Mus musculus with 10 samples.

Results

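The comparison described here sets mouse bone-marrow-derived macrophages given 10 nM Kdo2-lipid A for 2 h against untreated macrophages. Its members are 4 of the 10 libraries of the series, 2 in each group, taken by their labels, and every gene with enough counts to be tested, 12918 of the 23284 genes in the count table. Of the genes not tested, 6164 were at 0 in all 10 libraries. All cells came from C57BL/6J mice, with no genotype other than this strain in the labels, and were differentiated for 6 days in medium with macrophage colony-stimulating factor. The untreated group received no ligand and is placed at 0 h, so no untreated library matches the 2 h libraries in time, and effects of time or handling cannot be told apart from those of the ligand. Each group holds 1 library from experiment 1 and 1 from experiment 2, which the series design calls independent, and the sources used here do not give the age, sex or number of mice behind each culture. The other groups received 10 nM for 1 h, 0.03 nM for 1 h or 0.03 nM for 2 h, and of these the 10 nM 1 h and 0.03 nM 2 h groups serve below to show where 10 nM at 2 h differs. Polyadenylated RNA was sequenced and counted per gene.

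Kdo2-lipid A is the lipid anchor of bacterial lipopolysaccharide with its inner Kdo sugars, and is sensed by a surface complex of Toll-like receptor 4 (Tlr4), MD-2 (Ly96) and Cd14. The receptor signals through Myd88 to the transcription factor NF-kB and the MAP kinases, and through Ticam1 (TRIF) to Irf3 and interferon beta, whose secretion then drives a second set of genes through its own receptor and STAT factors. Macrophages are professional phagocytes, and this pathway is their best known route to inflammatory cytokines, chemokines and antiviral genes.

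Library totals ran from 33179599 to 42167096 counts over the 10 libraries. Values are counts per 1000000 (CPM), scaled with TMM, the trimmed mean method of edgeR, and given for experiment 1 and then experiment 2 (expt 1 and expt 2 in the names of libraries), and log2 fold changes carry a standard error (SE). Calls are genes with an adjusted p (Benjamini-Hochberg, all tested genes) under 0.05 in the quasi-likelihood test of edgeR. Genes raised at least 4-fold took 2.71% and 2.96% of all counts in the untreated libraries and 20.0% and 20.8% at 10 nM 2 h, and TMM factors were 1.14 and 1.15 against 0.788 and 0.775. Scaling by library totals alone would therefore lower every log2 fold change by 0.56, so the direction of changes smaller than this depends on the scaling. The sum of 10 macrophage markers was 27482 and 25335 CPM untreated and 33284 and 31819 CPM at 10 nM 2 h, and Csf1r, the receptor for macrophage colony-stimulating factor, stood at 3873 and 3781 CPM untreated and 3735 and 3769 CPM at 10 nM 2 h. Cd14 and Sfpi1, described below, are among the 10. In these bulk samples, fewer cells of a type and less RNA per cell cannot be told apart.

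After 2 h at 10 nM many of the tested genes had moved, most of them by less than 2-fold. Of 12918 genes tested, 7580 were called (58.7%), 3698 higher (28.6%) and 3882 lower (30.1%). With library totals in place of TMM the split was 1903 higher and 7898 lower, so that 19.4% of called genes were higher instead of 48.8%. At least 2-fold, 1688 genes rose and 1684 fell (1078 and 3653 with library totals). At least 4-fold, 829 rose and 499 fell, a majority of rises that turned to 594 and 1115 with library totals. At least 16-fold, 287 rose and 45 fell (217 and 96), and at least 256-fold 47 rose and 1 fell (33 and 3). The median log2 fold change over all tested genes was -0.03, and it went from -0.26 in the 3230 genes with the lowest mean level to 0.29 in the 3230 with the highest. The plot of all tested genes shows Il6, Irg1 and Cxcl10 far above 0 and Frat1, Bmf and Cxcr4 far below it.

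**Figure D1:**
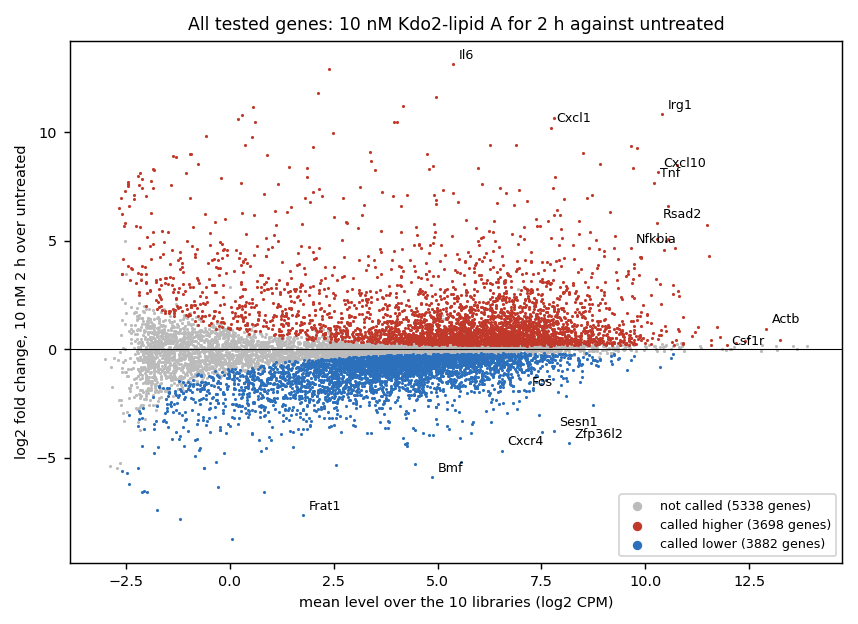
Log2 fold change at 10 nM 2 h over untreated (vertical axis) against the mean level over the 10 libraries in log2 CPM (horizontal axis), 1 point per tested gene, with 3698 genes called higher in red, 3882 called lower in blue and the others in grey. Library totals in place of TMM would shift every point down by 0.56.

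The change was also taken within each experiment. Each of the 7580 called genes had the same sign in experiment 1 and experiment 2, and 238 of them differed between the experiments by more than 1 on the log2 scale. Of the 829 genes raised at least 4-fold, 827 were higher by 1 or more on the log2 scale within each experiment. Calls and the 4-fold class were made from these same libraries, so this agreement follows in large part from the choice of genes. Over the 7002 genes of higher mean level, the log2 differences between the 2 libraries of a group had an SD of 0.145 in untreated cells. It was 0.144 at 10 nM 2 h and up to 0.269 in the other groups. Calls rest on a spread between libraries fitted over all 5 groups, and the labels do not say whether each experiment used separate animals.

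**Figure D2:**
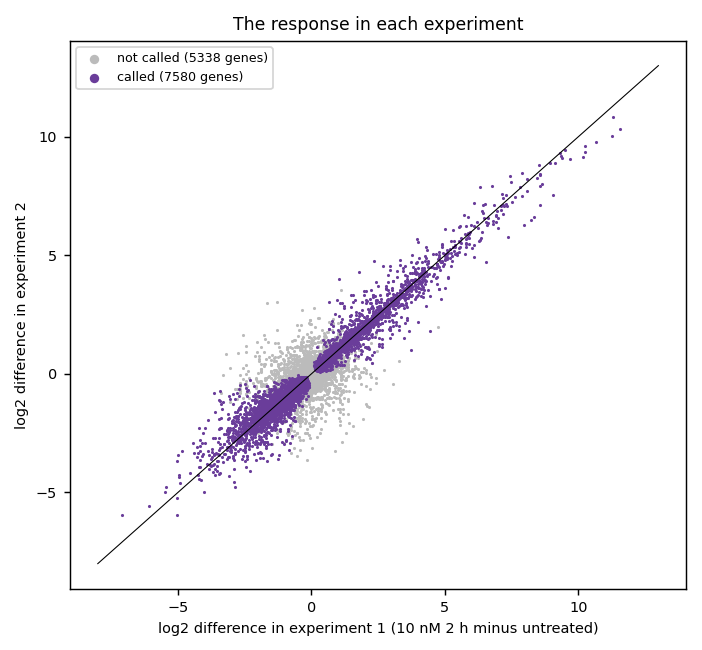
Log2 difference between the 10 nM 2 h and the untreated library within experiment 1 (horizontal axis) and within experiment 2 (vertical axis), 1 point per tested gene, with the 7580 called genes in purple and a line where the experiments are equal. All called genes lie in the lower left or the upper right.

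Nearly all inflammatory cytokine genes rose. Of 22 tested inflammatory cytokine genes, 20 rose and 0 fell, with a median log2 fold change of 6.18, or 5.02 with the 3 genes that had 0 untreated counts (Csf2, Csf3 and Il33) at their lower bounds, while with library totals 20 rose and 1 fell. Tnf (chromosome 17, 35336336 to 35338941, mm9), the founding inflammatory cytokine, went from 7.77 and 9.88 CPM to 1855 and 1778 CPM. Both experiments lay far apart from the untreated libraries, a 206-fold rise (log2 7.69 ± 0.21, edgeR adjusted p = 8.22e-10). Il1b, the secreted fever-inducing interleukin, went from 7.5 and 10.1 to 2861 and 3422 CPM, a 357-fold rise (edgeR adjusted p = 2.95e-06). Its neighbour Il1a, an alarm cytokine, went from 0.119 and 0.482 to 423 and 559 CPM. The untreated libraries differed from each other for Il1a, and the log2 fold change of 10.66 became 9.98 without untreated expt 1 and 11.97 without untreated expt 2.

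Il6 (chromosome 5, 30339701 to 30346508), a cytokine of fever and the acute phase, had 1 count over both untreated libraries and 133 and 140.1 CPM at 10 nM 2 h. The ratio was 11389.7, with a 95% counting interval of 2044 to 449922, which covers counting error only. The count was in untreated expt 2. The fitted log2 fold change of Il6, 13.12, was 12.28 without untreated expt 1 and 15.31 without untreated expt 2, which leaves 0 untreated counts. Il12b, the shared subunit of interleukins that drive T cell responses, rose 690.3-fold from 0.50 and 0.53 to 349 and 367 CPM (edgeR adjusted p = 4.53e-12). Its partner Il23a stayed low, with 2 untreated counts and 2.92 and 4.48 CPM at 10 nM 2 h. Csf2, a growth factor for granulocytes and macrophages, had 0 untreated counts and 3.25 and 3.28 CPM, at least 90.9-fold higher against a floor of 3 counts over the group. Il15, which maintains natural killer cells, rose 9.38-fold from 24.3 and 22.2 to 212 and 224 CPM. The 2 members not called were Osm and Ltb, both named after their values were seen.

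Genes that restrain inflammation rose beside them. Of 10 tested anti-inflammatory cytokine and antagonist genes, 9 rose and 0 fell, with a median log2 fold change of 2.49, and with library totals 6 rose and 1 fell. Il10, the main macrophage-restraining cytokine, went from 4.0 and 5.5 to 72.3 and 82.2 CPM (log2 4.02 ± 0.26, edgeR adjusted p = 2.12e-06). Il1rn, the natural antagonist of the interleukin 1 receptor, went from 11.2 and 12.6 to 661 and 769 CPM, 60.1-fold higher. Il19, a relative of Il10 next to it on chromosome 1, had 0 untreated counts and 7.91 and 7.08 CPM, at least 209-fold higher against the same floor. The receptor genes Tnfrsf1b and Il4ra, already expressed at 645 and 635 and at 167 and 159 CPM, rose 4.28-fold and 7.41-fold.

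Chemokines, the secreted proteins that direct leukocyte migration, rose in each of their 3 lists. All 3 CXCR3 ligands, which attract T and natural killer cells, rose, with a median log2 fold change of 8.16. Cxcl10 went from 16.6 and 15.8 to 4501 and 4764 CPM, 285-fold higher (edgeR adjusted p = 5.27e-06), Cxcl9 from 0.619 and 0.675 to 76.8 and 100.5 CPM, and Cxcl11 from 4 counts over the untreated libraries to 60.7 and 85.4 CPM. The log2 fold change of Cxcl11, 10.48, was 9.51 without untreated expt 1 and 14.41 without untreated expt 2. The untreated library of experiment 1 had no Cxcl11 count. Among 15 CC and other chemokine genes, 14 rose and 0 fell, with a median of 5.57 (5.48 with Ccl17, which had 0 untreated counts, at its bound), and 13 rose and 1 fell with library totals. Ccl4 rose 329-fold to 2492 and 2516 CPM and Ccl3 79.8-fold to 1293 and 1433 CPM, both attractants of monocytes and lymphocytes. Ccl5 went from 16.5 and 22.9 to 917 and 949 CPM, Ccl22 from 1.67 and 1.01 to 148 and 148 CPM and Ccl2, the classical monocyte attractant, from 1.91 and 2.43 to 217 and 214 CPM. Ccl9 was abundant before treatment, at 495 and 513 CPM, and still rose 7.79-fold.

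The neutrophil-attracting chemokines rose steeply. Of 6 tested, 5 rose and 0 fell (4 and 0 with library totals), with a median of 5.05, and Cxcl5 was not called. Cxcl1 (chromosome 5, 91320271 to 91322141) went from 0.167 and 0.265 to 267 and 249.9 CPM, Cxcl2 (chromosome 5, 91332925 to 91334964) from 1.12 and 1.69 to 784 and 953 CPM and Cxcl3 from 0.191 and 0.169 to 89.1 and 100.4 CPM. These are rises of 1179.8-fold, 618-fold and 517-fold. The platelet chemokine genes Pf4 and Ppbp rose less, with log2 fold changes of 1.09 ± 0.11 and 1.0 ± 0.34. Ppbp was not called with library totals (edgeR adjusted p = 0.255), without untreated expt 2 (0.148) or without 10 nM 2 h expt 1 (0.191).

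The promoters of several of these genes hold a sequence of the kind NF-kB binds. The following 250 bases before the gene start are shown because each holds at least 1 match to GGGNNNTTCC on either strand, with matches in capitals. The sequences are from RefSeq on build GRCm38.p6, 5′ to 3′ on the strand of the gene, and the genes were picked after their values were seen. Cxcl1 and Cxcl2 each hold 3 matches, of which 2 overlap on opposite strands, and Il6, Nfkbia and Ifnb1 hold 1 each.
Cxcl1, chr5:90890995-90891244 (+ strand): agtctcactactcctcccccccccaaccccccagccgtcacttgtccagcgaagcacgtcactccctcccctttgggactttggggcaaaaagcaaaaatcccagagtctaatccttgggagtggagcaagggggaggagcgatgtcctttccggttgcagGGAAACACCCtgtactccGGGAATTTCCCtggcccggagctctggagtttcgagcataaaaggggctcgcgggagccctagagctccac
Cxcl2, chr5:90903649-90903898 (+ strand): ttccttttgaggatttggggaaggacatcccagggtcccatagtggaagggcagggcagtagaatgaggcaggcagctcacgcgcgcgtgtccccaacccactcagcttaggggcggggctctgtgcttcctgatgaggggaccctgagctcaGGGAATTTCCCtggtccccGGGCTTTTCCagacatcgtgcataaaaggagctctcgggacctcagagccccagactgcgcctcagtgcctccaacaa
Il6, chr5:30012864-30013113 (+ strand): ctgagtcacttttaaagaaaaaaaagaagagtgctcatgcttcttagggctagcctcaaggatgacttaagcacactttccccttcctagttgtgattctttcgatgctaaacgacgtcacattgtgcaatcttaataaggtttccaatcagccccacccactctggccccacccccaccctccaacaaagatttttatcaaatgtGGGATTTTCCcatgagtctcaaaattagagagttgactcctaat
Nfkbia, chr12:55492648-55492897 (- strand): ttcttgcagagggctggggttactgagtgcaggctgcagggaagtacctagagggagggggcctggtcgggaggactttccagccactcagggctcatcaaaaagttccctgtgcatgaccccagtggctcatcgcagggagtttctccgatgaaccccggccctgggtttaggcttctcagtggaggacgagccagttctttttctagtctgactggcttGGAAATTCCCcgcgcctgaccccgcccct
Ifnb1, chr4:88522795-88523044 (- strand): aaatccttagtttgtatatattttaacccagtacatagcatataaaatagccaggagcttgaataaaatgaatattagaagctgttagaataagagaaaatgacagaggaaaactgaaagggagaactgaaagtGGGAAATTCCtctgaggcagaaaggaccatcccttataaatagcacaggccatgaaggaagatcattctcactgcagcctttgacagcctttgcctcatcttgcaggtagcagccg

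In Il6 the match ends 34 bases before the start, in Nfkbia 19 and in Ifnb1 106. Of the 12918 tested genes, 10180 matched a RefSeq promoter by symbol, and 8145 had a single one. Among these, the NF-kB letters stood in 41 of 514 promoters of genes raised at least 4-fold (7.98%), in 15 of 326 of genes fallen at least 4-fold (4.60%) and in 424 of all 8145 (5.21%). The AP-1 letters TGANTCA, bound by Fos and Jun proteins, stood in 45 of 514 (8.75%), 12 of 326 (3.68%) and 353 of 8145 (4.33%). The cAMP response letters TGACGTCA were at 2.72%, 2.45% and 2.84%, the E-box CACGTG at 8.75%, 5.83% and 8.40%, and CCAAT at 36.0%, 43.3% and 37.6%. Both strands were searched, 1 match per promoter was enough, and matches of different motifs could overlap. A match is a run of letters and not a measured binding site, and most promoters of raised genes held none of the NF-kB letters in this window.

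NF-kB subunits and inhibitors rose as a whole group. All 18 tested genes were called higher, with a median log2 fold change of 3.43, and with library totals 17 were higher and 1, Cyld, lower. Nfkbia (chromosome 12, 56590396 to 56593634), which encodes the inhibitor that holds NF-kB in the cytoplasm, went from 66.1 and 65.7 to 1717 and 1616 CPM, 25.3-fold higher (edgeR adjusted p = 3.06e-11). Tnfaip3, which encodes the ubiquitin-editing inhibitor A20, went from 32.8 and 35.5 to 3193 and 3379 CPM, 96.2-fold higher. Its partner Tnip1 rose 13.3-fold. Tnfaip2, an NF-kB target grouped with them, reached 7337 and 7337 CPM from 376 and 373 CPM.

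The receptor gene itself did not pass the test, while its co-receptor rose. Tlr4 stood at 119 and 133 CPM untreated and 97.2 and 108 CPM at 10 nM 2 h (log2 -0.30 ± 0.13, edgeR adjusted p = 0.0777). It was called lower with library totals (log2 -0.85), in a fit of the 4 libraries alone (adjusted p = 0.00676) and without either 0.03 nM 2 h library (0.00191 and 0.00142). Its co-receptor Cd14 went from 543 and 524 to 3444 and 3360.2 CPM, 6.38-fold higher, and Tlr2, the receptor for bacterial lipoproteins, from 153 and 151 to 1653 and 1565 CPM, 10.6-fold higher. Of 22 pattern recognition receptor genes, 13 rose and 3 fell (12 and 9 with library totals), and the number that fell was 5 when either 0.03 nM 2 h library was left out. The inflammasome sensor Nlrp3 rose 19.2-fold and the lectin receptor Clec4d 3.18-fold.

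Of 26 adaptor and kinase genes downstream of the receptor, 20 rose and 4 fell, with a median log2 fold change of 0.86, and 15 rose and 6 fell with library totals. Ripk2, the kinase of the NOD receptors, went from 7.19 and 9.88 to 220.5 and 230.4 CPM (26.4-fold), and Mapkapk2, the kinase that p38 activates, from 218 and 229.6 to 1881 and 1842 CPM (8.31-fold). Irak2, a kinase of the Myd88 complex, rose 6.8-fold and Map3k8, the kinase upstream of ERK, 4.71-fold. The number that fell was 2 without untreated expt 2.

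Immediate-early transcription factor genes, which need no new protein for their induction, were still mostly above untreated levels at 2 h. Of 23, 19 were called higher and 4 lower, with a median of 1.89, and with library totals 16 and 4. The number called lower was 2 without 10 nM 2 h expt 1. Maff, a small MAF factor, went from 0.881 and 0.699 to 130.3 and 146 CPM (174-fold), Gadd45b, a stress response gene, from 24.4 and 24.9 to 696 and 672 CPM (27.7-fold) and Fosl2 from 35.3 and 39.5 to 334 and 325 CPM (8.81-fold). Fos, the AP-1 subunit, moved the other way, from 68.5 and 94.8 CPM down to 17.5 and 25.5 CPM (log2 -1.93 ± 0.27, edgeR adjusted p = 0.000511). Both treated libraries lay below both untreated ones. Nr4a1, an orphan nuclear receptor, was near its starting level, 8.91 and 9.64 CPM against 11.5 and 15.4 CPM. Its log2 fold change of 0.53 (edgeR adjusted p = 0.0214) turned to -0.027 with library totals, and it was not called when 10 nM 2 h expt 2 (0.19), untreated expt 1 (0.107) or untreated expt 2 (0.0541), or either 0.03 nM 2 h library (0.102 and 0.114) was left out.

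Among 11 Kruppel-like factors, 5 rose and 3 fell, against 28.6% and 30.1% of all tested genes. The median was 0.02, while with library totals 4 rose and 6 fell with a median of -0.53. Klf7 went from 2.07 and 1.88 to 42.7 and 47.8 CPM and Klf6 from 240.0 and 262 to 1332 and 1472 CPM. Klf11 fell from 12.5 and 15 to 3.35 and 3.15 CPM and Klf10 from 34 and 33.7 to 14.9 and 14 CPM.

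Genes for inhibitors of signalling mostly rose. Of 17 MAP kinase phosphatase and inhibitor genes, 11 rose and 3 fell, with a median of 3.20, and 11 rose and 4 fell with library totals. Dusp2, a nuclear MAP kinase phosphatase, went from 2.22 and 2.75 to 621 and 580.3 CPM (242-fold), and Dusp1, which dephosphorylates p38 and JNK, from 9.65 and 14.4 to 454 and 504 CPM (39.8-fold). Errfi1, an inhibitor of the EGF receptor, rose 59.8-fold, Dusp16 23.2-fold and Spred2, an inhibitor of the Ras pathway, 6.85-fold. Of 12 genes for feedback on cytokine receptors, 8 rose and 2 fell, with a median of 1.18 (6 and 3 with library totals). Socs3, which blocks signalling from the Il6 receptor, went from 2.38 and 3.64 to 2022 and 1970.5 CPM, a 663-fold rise (edgeR adjusted p = 1.01e-06). Cish went from 1.14 and 1.06 to 174 and 154 CPM and Socs1, an inhibitor of interferon receptor kinases, from 1.57 and 1.25 to 137 and 154 CPM. The phosphatase genes Ptpn1 and Ptpn2 rose 2.97-fold and 3.51-fold and Socs7 3.53-fold.

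Of 15 regulators of mRNA decay, 10 rose and 2 fell, against 28.6% and 30.1% of all tested genes. The median log2 fold change of 0.46 turned to -0.09 with library totals (6 and 6). Zfp36, which encodes tristetraprolin, a protein that promotes decay of Tnf mRNA, rose from 84.4 and 91.4 to 829 and 837 CPM (9.47-fold). Its relative Zfp36l2 fell from 444 and 489 to 19 and 27.4 CPM (log2 -4.33 ± 0.17, edgeR adjusted p = 3.97e-09). The paralogs moved in opposite directions in both experiments. Zc3h12a, which encodes the nuclease regnase-1, rose 6.9-fold and the antiproliferative gene Btg1 2.05-fold.

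Nearly all interferon-stimulated genes rose as well. Of 36 tested antiviral genes, 33 rose and 0 fell, with a median log2 fold change of 2.07 (2.20 within experiment 1 and 1.98 within experiment 2), and 27 rose and 0 fell with library totals. Ifnb1, which encodes interferon beta, went from 0.0953 and 0.145 to 33 and 46.3 CPM, 322-fold higher. Rsad2, which encodes the antiviral enzyme viperin, went from 78.5 and 112 to 4652 and 5983 CPM, 56-fold higher (edgeR adjusted p = 4.76e-05). Ifit1, a sensor of viral RNA ends, went from 56 and 75.5 to 2329 and 2541 CPM. Both genes were higher in experiment 2 in both conditions, by less than the change with treatment. The dynamin-like GTPase genes Mx1 and Mx2 rose 32.6-fold and 64.1-fold, Cmpk2, the gene beside Rsad2, 24.8-fold, and the RNA sensor Ifih1 13.2-fold. Daxx rose 8.93-fold and Trim21, an intracellular antibody receptor, 4.88-fold.

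The guanylate-binding proteins and immunity-related GTPases, which attack the vacuoles of intracellular microbes, rose in all 14 tested genes under TMM and under library totals, with a median of 3.36. Gbp5 went from 11.1 and 11.8 to 1534 and 1611 CPM (137-fold, edgeR adjusted p = 1.59e-08), Gbp2 from 51.7 and 57 to 629 and 731 CPM and Gbp3 from 28.3 and 32.7 to 342 and 393 CPM. Tgtp1 reached 5.81 and 11.9 CPM from 0.238 and 0.265 CPM, and its log2 fold change of 5.12 was 4.51 without 10 nM 2 h expt 2. Tgtp1 and Tgtp2 are near-identical neighbours, so their counts are uncertain.

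Most factors that carry the interferon signal rose under TMM. Of 20 interferon regulatory and STAT factor genes, with their receptors and kinases, 16 rose and 0 fell, with a median of 0.84, but 8 rose and 5 fell with library totals. Irf1 went from 99.5 and 101 to 1824 and 1749 CPM (17.9-fold), the kinase gene Jak2 from 50.7 and 57.4 to 950.4 and 1006 CPM (18.1-fold) and Stat5a from 24.7 and 24.2 to 348 and 371 CPM (14.7-fold). Ifnar1, a receptor subunit for interferon beta, rose 2.52-fold. Irf7 was near the threshold, at 101 and 163 CPM untreated against 431 and 571 CPM (log2 1.93 ± 0.54, edgeR adjusted p = 0.0224). It was not called with library totals (0.0555), without untreated expt 1 (0.125) or untreated expt 2 (0.054), without 10 nM 2 h expt 2 (0.0872) or without either 0.03 nM 2 h library (0.0525 and 0.0554).

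Promoters of 4 of these genes are shown because they hold the letters GAAANNGAAA of the interferon-stimulated response element (ISRE), which IRF and STAT complexes bind. Capitals mark ISRE matches and, in Cxcl10 and Gbp5, also matches to GGGNNNTTCC. The sequences are again 250 bases before the start from RefSeq on GRCm38.p6, 5′ to 3′ on the strand of the gene, chosen after the values were seen.
Cxcl10, chr5:92348890-92349139 (- strand): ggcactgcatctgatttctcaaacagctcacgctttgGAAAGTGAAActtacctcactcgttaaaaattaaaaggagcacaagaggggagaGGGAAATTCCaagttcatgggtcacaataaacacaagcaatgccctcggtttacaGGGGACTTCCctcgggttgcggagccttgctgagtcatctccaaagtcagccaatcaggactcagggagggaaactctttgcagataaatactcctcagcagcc
Gbp5, chr3:142496684-142496933 (+ strand): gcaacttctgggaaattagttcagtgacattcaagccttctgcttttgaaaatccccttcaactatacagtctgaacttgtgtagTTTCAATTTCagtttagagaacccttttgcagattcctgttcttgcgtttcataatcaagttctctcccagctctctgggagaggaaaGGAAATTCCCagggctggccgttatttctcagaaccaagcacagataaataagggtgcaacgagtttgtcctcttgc
Ifit1, chr19:34640639-34640888 (+ strand): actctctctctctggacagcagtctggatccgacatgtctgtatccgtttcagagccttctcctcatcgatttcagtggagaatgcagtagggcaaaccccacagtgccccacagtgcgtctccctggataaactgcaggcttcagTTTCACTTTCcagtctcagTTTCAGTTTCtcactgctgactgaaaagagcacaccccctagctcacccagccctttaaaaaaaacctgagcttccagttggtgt
Rsad2, chr12:26456453-26456702 (- strand): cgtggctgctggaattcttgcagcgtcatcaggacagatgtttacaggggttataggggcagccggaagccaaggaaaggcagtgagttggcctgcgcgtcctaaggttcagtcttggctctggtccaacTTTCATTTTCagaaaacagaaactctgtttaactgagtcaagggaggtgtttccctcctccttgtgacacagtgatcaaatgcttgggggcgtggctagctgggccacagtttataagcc

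Cxcl10 holds 1 ISRE and 2 NF-kB matches, Gbp5 1 of each, Ifit1 2 ISRE matches and Rsad2 1. Over genes with a single promoter, the ISRE letters stood in 43 of 514 genes raised at least 4-fold (8.37%), in 5 of 326 fallen at least 4-fold (1.53%) and in 242 of all 8145 (2.97%). Among the raised genes the ISRE letters stood in 35 of the 345 that were also called higher at 2 h than at 1 h (10.1%), in 1 of the 33 called lower (3.03%) and in 7 of the 136 not called between those times (5.15%). The AP-1 letters were split in a similar way, in 34 of the 345 (9.86%), 2 of the 33 (6.06%) and 9 of the 136 (6.62%). The shares were 8.41%, 12.1% and 5.88% for the NF-kB letters and 9.28%, 12.1% and 6.62% for the E-box.

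Genes through which macrophages speak to lymphocytes also rose. Of 25 co-stimulation and antigen presentation genes, 23 rose and 1 fell, with a median of 1.06 (19 and 1 with library totals). Tnfsf9, the ligand of 4-1BB, went from 2.0 and 2.19 to 773 and 776 CPM (369-fold). Tnfsf4, the ligand of OX40, went from 0.595 and 0.169 to 51.6 and 51.8 CPM, with a log2 fold change of 7.06 that was 8.23 and 6.43 without untreated expt 1 and 2. Cd83 rose 10.9-fold and Cd86, a ligand of the T cell co-receptor CD28, 3.99-fold. B2m, the shared chain of class I molecules, rose 1.55-fold but was not called with library totals (edgeR adjusted p = 0.439).

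Of 21 adhesion and migration genes, 16 rose and 0 fell, with a median of 1.92, and 13 rose and 5 fell with library totals. Icam1, a ligand of leukocyte integrins, went from 110.1 and 109.7 to 3687 and 3673 CPM (33.5-fold) and Vcam1 from 1.81 and 2.87 to 145 and 144 CPM. The small GTPase gene Rnd1 went from 0.476 and 0.506 to 347 and 325 CPM, 679-fold higher (edgeR adjusted p = 5.32e-12). Cd44, the hyaluronan receptor, rose 6.99-fold from 229 and 245 CPM. Sele, the E-selectin gene better known from endothelium, had 0 untreated counts and 9.39 and 14.2 CPM, at least 327-fold higher against the floor of 3 counts.

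Effector enzymes included some of the steepest rises. Of 22 tested, 16 rose and 1 fell, with a median of 2.63 (14 and 5 with library totals). Irg1 (chromosome 14, 103446229 to 103455790), which encodes the enzyme that makes itaconate, went from 1.29 and 3.42 to 4095 and 4527 CPM. Its log2 fold change was 10.84 ± 0.83 (edgeR adjusted p = 5.02e-05), and 11.7 without untreated expt 2. Ptgs2, the inducible cyclooxygenase, went from 1.12 and 1.52 to 663 and 749.7 CPM (534-fold), and Ptges, which acts after it in prostaglandin E2 synthesis, from 1.72 and 1.69 to 36.2 and 46.6 CPM. Nos2, the inducible nitric oxide synthase, went from 0.143 and 0.0964 to 46 and 53.7 CPM (405-fold), a lower level than that of Ptgs2 in the same cells per unit of transcript length as well (12.5 against 170.4 CPM per kb). Ch25h, the cholesterol 25-hydroxylase, rose 140.0-fold, the mitochondrial superoxide dismutase Sod2 22.9-fold and the cystine transporter Slc7a11 43.9-fold.

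Among 18 proteases and their inhibitors, 10 rose and 0 fell, with a median of 1.12 (9 and 4 with library totals). The number that fell was 1 without 0.03 nM 2 h expt 1 or 10 nM 2 h expt 2, and 2 without 0.03 nM 2 h expt 2. The collagenase gene Mmp13 went from 5.45 and 5.47 to 854 and 1039 CPM (173-fold) and the urokinase receptor Plaur from 17 and 13.1 to 322 and 360.0 CPM. Adamts4, an aggrecan-cleaving protease, had 2 untreated counts and 64.4 and 66.5 CPM, a ratio of 2730.3 with a 95% counting interval of 755 to 22553. Both counts were in untreated expt 2. The fitted log2 fold change of Adamts4, 11.23, was 10.31 without untreated expt 1 and 14.25 without untreated expt 2. The cystatin gene Cst7 rose 11.1-fold.

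The largest rises also held genes outside these lists. Shisa3 had 0 untreated counts and 26.2 and 25.2 CPM, at least 715-fold higher against the floor. Olr1, the receptor for oxidised lipoprotein, had 2 untreated counts and 85.1 and 89.6 CPM, a ratio of 3643 (95% counting interval 1008 to 30086). The counts were again in untreated expt 2, and the fitted log2 fold change of 11.64 was 10.72 without untreated expt 1 and 14.67 without untreated expt 2. Edn1, which encodes the vasoconstrictor endothelin 1, went from 4 untreated counts to 73.2 and 70.3 CPM. The sphingosine kinase gene Sphk1 had 2 untreated counts and 17.5 and 17.3 CPM, a ratio of 725 (200.2 to 5993). Its counts were in untreated expt 1, and the fitted log2 fold change of 9.31 was 12.34 without that library and 8.41 without untreated expt 2.

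Cell death regulators of both kinds changed. Of 25 cell death regulators, 19 rose and 3 fell, with a median of 1.26 (14 and 6 with library totals). The anti-apoptotic Bcl2a1 genes rose steeply, Bcl2a1a from 0.191 and 0.337 to 92.2 and 93.6 CPM, Bcl2a1b from 28.4 and 25.5 to 1188 and 1106 CPM and Bcl2a1d from 3.62 and 3.98 to 443 and 419 CPM. These copies are nearly identical, so the split of reads among them is uncertain. The death receptor Fas rose 9.43-fold. Bmf, a pro-apoptotic BH3-only gene, was among the largest falls of all, from 57.2 and 56.4 to 0.788 and 1.13 CPM (log2 -5.89 ± 0.19, edgeR adjusted p = 2.01e-10). The number of list members that fell was 1 without untreated expt 1 or without 10 nM 2 h expt 1.

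**Figure D3:**
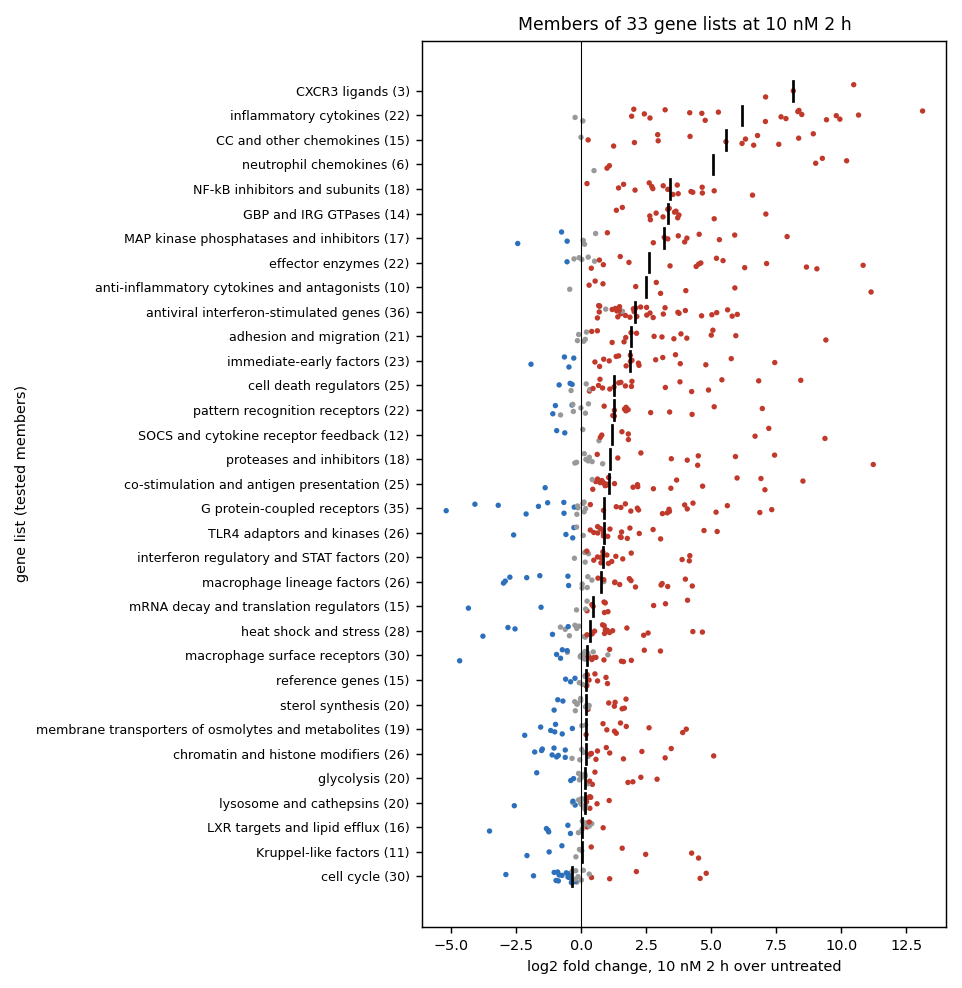
Log2 fold change at 10 nM 2 h over untreated (horizontal axis) for the tested members of 33 gene lists (vertical axis, with the number tested), red where called higher, blue where called lower and grey where not called, with a black bar at each list's median. Medians run from -0.33 for the cell cycle genes to 8.16 for the CXCR3 ligands, and with library totals the medians of 12 lists are below 0.

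Of 26 transcription factors that define the macrophage lineage, 13 rose and 7 fell, against 28.6% and 30.1% of all tested genes. Their median was 0.76 (12 and 9 with library totals). Sfpi1, which encodes PU.1, the master factor of the lineage, rose 2.46-fold from 300.3 and 338 CPM. Cebpa, needed for myeloid differentiation, fell from 118 and 119.6 to 18.6 and 17 CPM (log2 -2.74 ± 0.09, edgeR adjusted p = 3.78e-10), and the treated libraries lay far below the untreated ones. Tfec, of the same factor family as Tfeb, rose 16.1-fold and Nfil3 19.3-fold.

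Surface receptors of macrophages changed less as a group: of 30, 13 rose and 5 fell, against 28.6% and 30.1% of all tested genes. The median was 0.24, and -0.31 with library totals, when 5 rose and 17 fell. Csf1r was not called (edgeR adjusted p = 0.732), but with library totals it was called lower (log2 -0.58, adjusted p = 4.9e-06). Cxcr4, a chemokine receptor that retains cells in the marrow, fell from 172 and 148 to 5.42 and 7.18 CPM (log2 -4.67 ± 0.16, adjusted p = 7.79e-10). Scavenger receptor Msr1 rose 8.28-fold, the inhibitory Fc receptor Fcgr2b 3.81-fold and Tnfrsf11a, which encodes RANK, 3.09-fold.

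Of 35 G protein-coupled receptors and their regulators, 19 rose and 9 fell, against 28.6% and 30.1% of all tested genes. The median was 0.86, and with library totals 18 rose and 17 fell. Adora2a, the adenosine receptor that dampens inflammation, went from 1.19 and 0.796 to 112 and 121 CPM (117-fold), and the niacin receptor Niacr1 from 1.1 and 1.28 to 54.7 and 62.4 CPM. The nucleotide receptor P2ry2 rose 19.7-fold and the orphan receptor Gpr85 15.8-fold. The lysophosphatidic acid receptors Lpar6 and Lpar5 fell, Lpar6 from 70.2 and 82.4 to 2.07 and 2.12 CPM and Lpar5 from 36.2 and 35.4 to 1.97 and 2.26 CPM. Outside the list, the cannabinoid receptor Cnr2 fell from 38.8 and 36.8 to 0.821 and 1.13 CPM (log2 -5.28 ± 0.19).

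The other largest falls were in genes of varied function. Frat1, which encodes an inhibitor of the kinase GSK3, fell from 7.19 and 7.38 CPM (608 counts) to 0 and 0.0684 CPM (2 counts), 217-fold lower with a 95% counting interval of 59.9 to 1799.6. The polycomb gene Cbx8 fell from 6.93 and 6.89 to 0.328 and 0.274 CPM and Dnajc28, of the J-protein family, from 10.9 and 10.8 to 0.197 and 0.342 CPM. Abhd15 fell by 4.36, AI467606 by 4.47 and Fam78a by 4.3 on the log2 scale.

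Some glycolysis and transporter genes rose while the lists as a whole stayed near 0. Of 20 glycolysis genes, 7 rose and 3 fell (28.6% and 30.1% of all tested genes), with a median of 0.15 that was -0.40 with library totals (4 and 14). Pfkfb3, which sets the level of the activator of phosphofructokinase, went from 73.6 and 79.4 to 571 and 587 CPM (7.57-fold), Hk2 from 62.5 and 60.5 to 293 and 312 CPM and Pfkp from 50.8 and 49.8 to 198 and 201 CPM. The isoform gene Pfkfb4 fell from 59.3 and 60 to 16.6 and 19.9 CPM. Pgk1 had a log2 fold change of 0.53 that was -0.025 with library totals. Among 19 transporters of osmolytes and metabolites 10 rose and 7 fell, against the same shares of all tested genes (median 0.19, and -0.36 with library totals). The glucose transporter Slc2a1 went from 28.2 and 26.3 to 164 and 169 CPM, Slc2a6 from 35 and 34.1 to 571 and 568 CPM and the zinc transporter Slc39a14 from 13.4 and 13.8 to 194 and 212 CPM. The metal ion transporter Slc11a2 rose 2.43-fold.

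The medians of the sterol lists were also near 0 under TMM. Of 20 sterol synthesis and uptake genes, 7 rose and 3 fell, against 28.6% and 30.1% of all tested genes. The median was 0.20, and -0.36 with library totals. Those that rose included the regulators Insig1 and Srebf2, 2.47-fold and 2.43-fold. Of 16 LXR target and lipid efflux genes, 3 rose and 6 fell, against the same shares of all tested genes. Their median was 0.04, and -0.52 with library totals, when 0 rose and 12 fell. The number that rose was 1 without untreated expt 2. The cholesterol exporter Abcg1 fell from 319 and 337 to 128 and 148 CPM, the nuclear receptor Rxra from 88.5 and 88.7 to 35.5 and 34.8 CPM, and Angptl4, an inhibitor of lipoprotein lipase, from 16.9 and 20.2 to 1.31 and 1.91 CPM. Scd2, a fatty acid desaturase, fell by 1.27 on the log2 scale.

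The median of the lysosomal genes was near 0 under TMM. Of 20, 7 rose and 3 fell, against 28.6% and 30.1% of all tested genes. The median was 0.14, and -0.42 with library totals, when 1 rose and 18 fell. The number that rose was 11 without 0.03 nM 2 h expt 1, and the number that fell was 1 without either untreated library and 5 without 0.03 nM 2 h expt 2. The factor gene Tfeb, a driver of lysosome formation, fell from 55.5 and 55.6 to 10.1 and 8.58 CPM (log2 -2.57 ± 0.11, edgeR adjusted p = 2.44e-09). Its relative Tfe3 had a log2 fold change of 0.37 that turned to -0.19 with library totals. The cathepsin genes Ctsc and Ctsz rose 2.11-fold and 1.53-fold, and Ctsz was not called with library totals (adjusted p = 0.581).

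Of 28 heat shock and stress genes, 15 rose and 5 fell, against 28.6% and 30.1% of all tested genes. The median was 0.32, and -0.23 with library totals. The antioxidant enzyme Txnrd1 went from 284 and 264 to 1492 and 1409.8 CPM and the chaperone Dnaja1 from 156 and 153 to 522 and 523 CPM. The sestrins, which restrain the growth kinase mTORC1, fell: Sesn1 from 349 and 338 to 26.9 and 23.3 CPM and Sesn2 from 33.4 and 34 to 4.43 and 5.16 CPM. The fall of Sesn1 was 3.77 on the log2 scale (SE 0.10).

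More cell cycle genes fell than rose. Of 30, 5 rose and 17 fell, with a median log2 fold change of -0.33 (4 rose and 24 fell with library totals), although the falls were mostly small and 3 reached 2-fold. E2f2, a factor for S phase entry, fell from 16.5 and 16.7 to 1.87 and 2.6 CPM. Cdkn1a, which encodes the cell cycle inhibitor p21, rose 23.8-fold from 132 and 153 to 3396 and 3392 CPM, and Plk2 2.14-fold. Mki67, the proliferation marker, went against the list and rose from 137 and 144 to 602 and 619.9 CPM (log2 2.12 ± 0.12, edgeR adjusted p = 2.21e-08).

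Of 26 chromatin regulators 11 were called higher and 9 lower, against 28.6% and 30.1% of all tested genes (median 0.18, and -0.38 with library totals, when 7 were higher and 13 lower). The AP-1 related repressor Jdp2 went from 11.4 and 11.2 to 386 and 389 CPM and the corepressor Bcor from 24 and 27.4 to 279.9 and 287 CPM. Kdm6b, the demethylase of the repressive H3K27me3 mark, rose from 13.3 and 13.2 to 111 and 138 CPM, while Kdm2b fell from 62.2 and 64.2 to 20.5 and 23.6 CPM.

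Several housekeeping genes used as references were called. Of 15, 8 were called higher and 3 lower, against 28.6% and 30.1% of all tested genes (median 0.21), and with library totals 2 higher and 11 lower (median -0.35). The higher count was 4 and the lower count 1 without 10 nM 2 h expt 1 and also without untreated expt 2. Actb, the cytoplasmic actin gene, went from 5982 and 5682 to 11137 and 11499 CPM (log2 0.96 ± 0.07) and Ywhaz from 418 and 420.2 to 836 and 856 CPM (log2 1.01 ± 0.07), both larger than the shift of 0.56 between scalings.

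Some families stood out by symbol alone, chosen after their values were seen. Of 322 tested genes whose symbols start with Zfp, the zinc finger proteins, 220 were called lower (68.3%, against 30.1% of all tested genes) and 33 higher, with a median log2 fold change of -1.0 under TMM and -1.56 with library totals. Among 90 cytosolic ribosomal protein genes 57 were called higher and 2 lower, with a median of 0.29 that was -0.26 with library totals, and among 49 proteasome genes (Psm symbols) 34 higher and 1 lower, 0.41 and -0.15. Of all tested genes 28.6% were called higher, and 1777 of the 3230 with the highest mean level. For 41 genes of mitochondrial complex I (Nduf symbols), 1 was called higher and 3 lower (median 0.04, and -0.52 with library totals). Ribosomal protein genes have many near-identical pseudogenes, so their counts are uncertain.

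Most raised genes were higher at 2 h than at 1 h, and a smaller set was already lower. In a direct comparison of 10 nM at 2 h with 10 nM at 1 h, 5526 of 12918 genes were called (42.8%), 2747 higher (21.3%) and 2779 lower (21.5%). This comparison shares the 10 nM 2 h libraries with the one against untreated cells. Of the 829 genes raised at least 4-fold over untreated, 554 were higher at 2 h than at 1 h, 66 were lower and 209 were not called, and 177 had not been called at 1 h. Of the 499 fallen at least 4-fold, 301 were lower still at 2 h and 8 were higher.

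Interferon-stimulated genes were mostly higher at the later time: 30 of 36 antiviral genes and 13 of 14 GBP and IRG genes were higher at 2 h than at 1 h, and 0 lower in either list. Mx1 was at 69.6 and 105 CPM at 1 h and 1754 and 2072 CPM at 2 h (log2 4.45 ± 0.50, edgeR adjusted p = 0.000658). Mx2 was 3.99 higher on the log2 scale. Socs1 went from 6.27 and 6.05 CPM at 1 h to 137 and 154 CPM at 2 h (23.7-fold). The other largest increases from 1 h to 2 h were in Abtb2 (log2 4.93), the LIM homeobox gene Lhx2 (4.56), the endothelial lipase gene Lipg (4.5), Spsb1 (4.31, and 4.95 without 10 nM 1 h expt 2) and the cyclin gene Ccnj (4.1). Nos2 was also late, 2.69 and 4.47 CPM at 1 h and 46 and 53.7 CPM at 2 h, as was Stat5a (6.72-fold).

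Immediate-early genes and MAP kinase inhibitors were mostly past their level at 1 h. Of 23 immediate-early genes, 16 were lower at 2 h than at 1 h and 0 higher. Of 17 MAP kinase phosphatase and inhibitor genes 9 were lower and 4 higher. Among all tested genes 21.5% were lower and 21.3% higher. Nr4a1 fell from 393 and 361 CPM at 1 h to 11.5 and 15.4 CPM at 2 h (log2 -4.82 ± 0.18) and Egr1, a zinc finger factor of the first wave, from 217 and 233 to 14.1 and 22.3 CPM (-3.63 ± 0.22). Both libraries at 2 h lay far below both at 1 h. Of 22 inflammatory cytokine genes, 11 were higher at 2 h than at 1 h and 7 lower, against 21.3% and 21.5% of all tested genes. Tnf fell from 3835 and 3662 to 1855 and 1778 CPM and Ifnb1 from 103 and 94 to 33 and 46.3 CPM. Il6 rose from 74.8 and 69.1 to 133 and 140.1 CPM. Of the chemokine genes, Cxcl2 fell from 3557 and 3348 to 784 and 953 CPM and Cxcl10 rose from 1532 and 1422 to 4501 and 4764 CPM. The log2 difference between 2 h and 1 h was 0.06 ± 0.09 for Nfkbia and 0.06 ± 0.15 for Ccl3, and neither passed the test. For Il1b it was -0.75 ± 0.30, not called (edgeR adjusted p = 0.0907) but called with a block for the experiment (0.00861), and the block also brought Irg1 (1.05, adjusted p 0.166 to 0.0463), Ptgs2 (-0.64, 0.0756 to 0.0318) and Irf7 (1.53, 0.0635 to 0.000416) past the threshold.

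Many of the falls were still deepening between 1 h and 2 h. Frat1 was at 0.896 and 0.872 CPM at 1 h, Lpar6 at 28 and 28.5 CPM, Cxcr4 at 73.2 and 69.6 CPM, Zfp36l2 at 247 and 211 CPM and Cnr2 at 8.99 and 9.25 CPM, all called higher than at 2 h. BC031353 was lower at 2 h than at 1 h by 3.41 on the log2 scale. In the plot of genes by library the falls of Lpar6, Cxcr4 and Zfp36l2 deepen in both experiments.

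**Figure D4:**
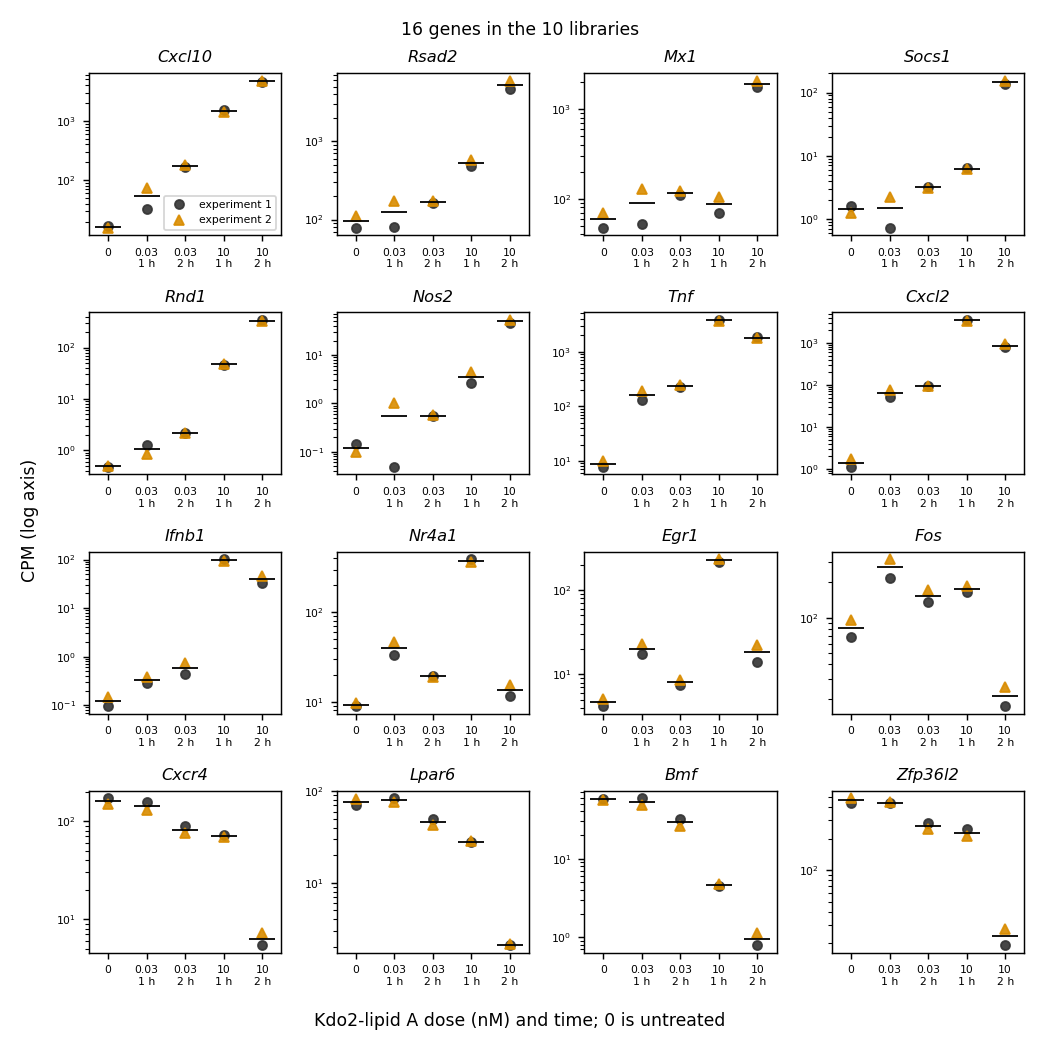
CPM on a log axis (vertical) of 16 genes in the 10 libraries by dose and time (horizontal), circles for experiment 1, triangles for experiment 2 and bars for the group mean. Mx1 and Socs1 are highest at 10 nM 2 h, Nr4a1 and Egr1 at 10 nM 1 h, and Lpar6 and Bmf are lowest at 10 nM 2 h.

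Most genes with large changes at 10 nM were less changed at 0.03 nM at the same time. Directly compared at 2 h, 6827 of 12918 genes were called between the doses (52.8%), 3313 higher (25.6%) and 3514 lower (27.2%) at 10 nM. Of the 829 genes raised at least 4-fold at 10 nM 2 h over untreated, 775 were higher at 10 nM than at 0.03 nM, 0 were lower and 54 were not called, and of the 499 fallen genes 463 were lower at 10 nM and 0 higher. The comparison shares its 10 nM 2 h libraries with the one against untreated cells. The same SD between libraries was 0.269 at 0.03 nM 2 h, the highest of the 5 groups. In a fit of only the 4 libraries compared, 5801 of 12454 genes were called between the doses, 2892 higher and 2909 lower. The part of this spread in the calls was not tested.

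**Figure D5:**
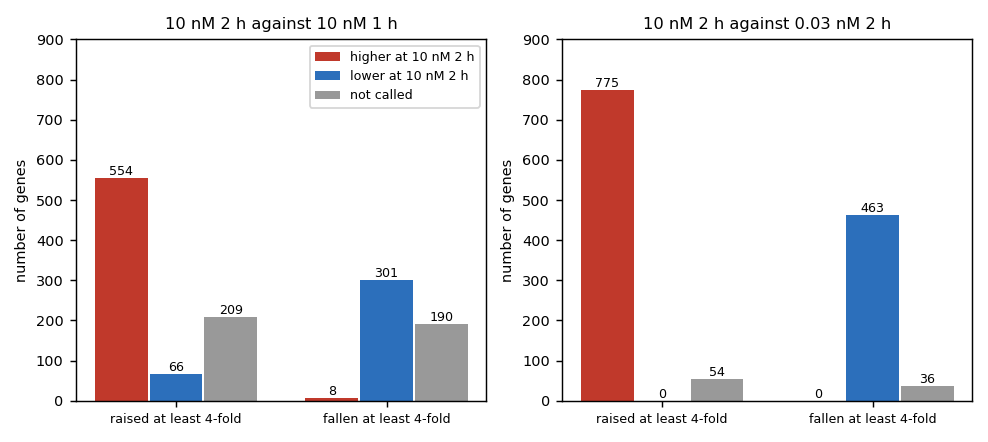
Number of genes (vertical axis) raised or fallen at least 4-fold over untreated that were called higher (red), called lower (blue) or not called (grey) at 10 nM 2 h against 10 nM 1 h (left) and against 0.03 nM 2 h (right). Of 829 raised genes 554 are higher than at 1 h and 775 higher than at 0.03 nM.

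Several cytokine genes were among the largest differences between doses. Il6 was at 0.986 and 0.717 CPM at 0.03 nM and 133 and 140.1 CPM at 10 nM, and Il1a at 3.72 and 3.61 and 423 and 559 CPM. Edn1 (180.1-fold), Rnd1 (154-fold), Lipg (141-fold) and Cxcl11 (139-fold) were also among the 8 largest differences, with Sele, at 0 and 0 CPM at 0.03 nM, and Il23a, at 0 and 0 CPM. Smaller differences were measured for others: Tlr2 was 1.97-fold higher at 10 nM, Irak2 2.13-fold and Nfkbia 4.26-fold. Of the falls, Bmf was at 32.3 and 26.4 CPM at 0.03 nM and 0.788 and 1.13 CPM at 10 nM, Lpar6 at 50.4 and 42.3 and 2.07 and 2.12 CPM, and Frat1 at 2.85 and 2.58 and 0 and 0.0684 CPM. Irf7 (1.17 ± 0.53, edgeR adjusted p = 0.115) was not called between doses, and was called with a block for the experiment (0.00122). Tlr4 was not called either (0.32 ± 0.13, 0.0663), and its log2 difference was -0.17 with library totals, also not called. DESeq2 called it higher at 10 nM (log2 0.35), and it was also higher without 0.03 nM 2 h expt 1 (log2 0.59). Egr1 was higher at 10 nM (log2 1.17), and not called without the same library (adjusted p = 0.063).

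Levels of different genes were compared per kilobase of exon. Among genes raised at least 4-fold, Cxcl10 had the highest level at 10 nM 2 h, 4092 and 4331 CPM per kb in experiments 1 and 2, followed by Ccl4 (3776 and 3813) and the syndecan gene Sdc4 (3288 and 3129.9). In untreated cells their levels were 14.8, 11.5 and 59.7 CPM per kb. Il1b (2367) and Cd14 (2273) came next as means of both libraries. Of the 829 genes, 43 had 0 counts and 33 had 1 to 3 counts over the untreated libraries, and their median level went from 4.71 to 60.2 CPM.

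Some raised genes lay side by side. Taking tested genes in order along each chromosome, 31 runs of 3 or more neighbours all rose at least 4-fold, and these held 114 of the 829 genes, described here after their values were seen. The neutrophil chemokines Cxcl3, Cxcl1 and Cxcl2 formed one run (chromosome 5, 91215129 to 91334964, mm9), Cxcl9, Cxcl10, Cxcl11 and Nup54 another (chromosome 5, 92750357 to 92864225) and Ccl2, Ccl7, Ccl12 and Ccl8 one more (chromosome 11, 81849079 to 81930301). Il1a, Il1b and Gm14047 (chromosome 2, 129125346 to 129201469), Il19, Il10 and Mapkapk2 (chromosome 1, 132829233 to 132994120) and Gbp5, Gbp7 and Gbp3 (chromosome 3, 142159898 to 142236176) were also adjacent. The longest run held 8 genes, from Vmn2r90 to Fpr2 (chromosome 17, 17840905 to 18030916), with log2 fold changes of 2.63 to 9.01. Whether counting used strand is unknown from the sources used here, so reads that run past or overlap a neighbour cannot be told apart from its own transcripts.

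Markers of other cell types were summed in the same libraries, and some moved. The counts of called markers below stand against 28.6% of all tested genes called higher and 30.1% called lower. The summed level of 12 neutrophil markers was 102.5 and 97.9 CPM untreated and 195.5 and 191.7 CPM at 10 nM 2 h, against at least 25335 CPM for the macrophage markers in any of the 4. Csf3r, at 69.4 and 72.5 and 139 and 144 CPM, was the most abundant of the 12, and 5 of 12 rose (2 with library totals, and 3 without untreated expt 2 or without 10 nM 2 h expt 1). Lcn2, an iron-withholding protein of neutrophils, went from 2.26 and 1.93 to 13.8 and 11.7 CPM. Dendritic cell markers summed to 20.1 and 16.4 CPM and to 29.2 and 29.6 CPM, with 4 of 10 tested genes higher (2 without untreated expt 2 or without 10 nM 2 h expt 2). Stromal and endothelial markers summed to 72.6 and 139.8 CPM untreated and 99.3 and 180.5 CPM at 10 nM 2 h, higher in experiment 2 in both conditions, with 2 of 14 called higher, Kdr (3.62 and 5.52 to 18.3 and 27.5 CPM) and Pdgfrb (1.55 and 2.75 to 8.54 and 9.61 CPM). T and natural killer cell markers summed to 148.4 and 149.5 CPM untreated and 127.5 and 144.9 CPM at 10 nM 2 h, most of it from Il7r, the interleukin 7 receptor, at 115 and 115 and 90.1 and 99.7 CPM, and Cd4. B cell markers summed to 5.54 to 10.0 CPM, erythroid to 0.752 to 2.75 CPM and mast cell to 0.337 to 1.33 CPM over the 4 libraries. Of these lists Il7r (log2 -0.28), the B cell gene Cd79b (-0.64) and 1 erythroid gene were called lower, and neither Il7r nor Cd79b was called without untreated expt 1 (edgeR adjusted p = 0.0575 and 0.313) or without 10 nM 2 h expt 1 (0.121 and 0.185). Il7r was also not called without untreated expt 2 (0.0547), nor Cd79b without 10 nM 2 h expt 2 (0.0679). The T and natural killer cell markers Cd3d, Ncr1, Nkg7 and Gzmb, the erythroid Hbb-b1, Hbb-b2 and Slc4a1, the mast cell Mcpt4, Tpsb2 and Tpsab1 and the B cell gene Igll1 had no count in these 4 libraries. Lck, a kinase of T cells, rose from 0.381 and 0.289 to 5.12 and 6.02 CPM and Gata2, of mast cells and progenitors, from 0.214 and 0.121 to 0.952 and 0.923 CPM. The part of other cells in the results above was not tested.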

How the data were processed

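Polyadenylated RNA of 10 mouse macrophage libraries (5 groups of 2) was sequenced on an Illumina NextSeq from strand-marking kits, per the labels' protocols. The authors deposited whole-number counts per gene, with build mm9, TopHat2 2.0.11, featureCounts 1.4.5-p1, bcl2fastq 2.15.0.4 and DESeq2 named in the submitters' processing notes. The authors' table of regularised log values was not used here. The sources used here do not give the strand setting, the treatment of reads that match several places or the annotation release.

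The counts were fitted with edgeR 4.0.16 (R 4.3.3): filterByExpr by group left 12918 of 23284 genes, libraries were scaled by TMM, and a robust quasi-likelihood model with 1 mean per group over all 10 libraries left 5 residual degrees of freedom. Calls had an adjusted p (Benjamini-Hochberg) under 0.05. P-values set the difference between group means against a spread between libraries that was fitted over all 5 groups. Library totals of 33179599 to 42167096 counts set the precision, and 95% intervals and the floor of 3 counts for low counts cover counting error only. Log2 differences within an experiment used a prior count of 2.

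Genes were named by rule: among called genes of mean log2 CPM 1 or more and 1 sign in both experiments, the 15 that rose and the 12 that fell most, up to 4 called members of each of 40 gene lists by smallest p (all where 5 or fewer were called), a fixed panel, and the 8 largest differences each way against 10 nM 1 h and against 0.03 nM 2 h. Members and lists were chosen with earlier results of these data known. Sdc4, Fpr2 and the other neighbours in gene runs, the symbol families, and genes described as not called were named after their values were seen. Promoters came from RefSeq (GRCm38.p6), matched by symbol to 10180 genes, and no coordinates were converted between builds. Some genes are not reported here.

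Both groups carry the experiment numbers 1 and 2 of the labels. Deviations from the group means of same-numbered libraries correlated at 0.0397 to 0.236 (median 0.177) over the 10 pairs of groups, above 0.1 in 7, and at 0.191 for the groups compared here. Alternatives were library totals, RLE size factors, other filters, DESeq2 1.42.0, limma 3.58.1 voom, a block for the experiment, the 4 libraries alone, and each library left out.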

Additional observations from a re-analysis of the deposited data

Results flagged for a closer look

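Fos and Ccnj were called in opposite directions over untreated cells at 10 nM 2 h and at 10 nM 1 h, with a called difference between those groups in edgeR's quasi-likelihood test. Fos was above untreated at 10 nM 1 h (log2 1.11) and below it at 2 h (-1.93), a difference of -3.03 ± 0.28 (adjusted p = 9.57e-05) that was lower at 2 h in both experiments. Ccnj was below untreated at 1 h (log2 -2.67) and above it at 2 h (1.43), a difference of 4.1 ± 0.20 (adjusted p = 5.2e-08). These effects share the untreated libraries. Over all 12918 tested genes, 156 were called in opposite directions at 10 nM 1 h and 2 h with a called difference, 78 of them higher and 78 lower than untreated at 2 h, and 35 at 0.03 nM and 10 nM at 2 h, 13 higher and 22 lower at 10 nM. A called difference in either direction was found between the times for 156 of 196 named genes (42.8% of all tested genes) and between the doses for 187 of 196 (52.8%). Named genes were chosen mostly among called genes and in part for these differences, so these counts are a description of the choice.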

How the results depend on the processing

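Scaling was the choice that moved the counts of called genes by over 1.5 times: with library totals in place of TMM, 1903 genes were called higher and 7898 lower than untreated (1078 and 3653 at least 2-fold), 1759 higher and 4270 lower than at 10 nM 1 h, and 1726 higher and 7637 lower than at 0.03 nM 2 h (861 and 2937 at least 2-fold). The log2 shift was -0.56 in the first comparison, and it turned Tfe3 to -0.19, Pgk1 to -0.025 and Nr4a1 to -0.027. Under RLE size factors 7576 genes were called against untreated, with DESeq2 7384, with limma voom 7517, without a filter except 1 count 7467, and with a filter at 1 CPM 7398. With a replicate block for the experiment the count was 7695 over all 10 libraries and 8782 over the 4 alone, and the former changed no call of a named gene against untreated. Its changes in the other comparisons stand beside the genes reported. Leaving out 1 library at a time gave 6481 to 8241 calls against untreated, 4024 to 6473 against 10 nM 1 h and 5681 to 7010 against 0.03 nM 2 h. Where this left a group with 1 library, that library was assumed to vary like the others. The log2 fold change of Frat1 was -7.63, and -6.67 and -11.14 without 10 nM 2 h expt 1 and 2. Depth limits the folds of genes with few counts: 43 of the 829 raised genes had 0 untreated counts, for which a fold is a lower bound.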
